A study of Caenorhabditis elegans with 2 samples.

Results

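The messenger RNAs of an animal end in a 3′ untranslated region (3′ UTR), the part of the transcript that follows the stop codon and carries the poly(A) tail at its end. Its length is set where the cleavage and polyadenylation machinery cuts the transcript. A longer 3′ UTR has room for more sites bound by microRNAs and RNA-binding proteins, which act on translation, decay and localisation. The genome of the nematode Caenorhabditis elegans is compact, and genes on opposite strands often end close to each other or run over each other's 3′ ends, so that a long stretch of cloned sequence can belong to 1 long 3′ UTR or to a pair of convergent genes.

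Described here are the long intervals of a list of contigs (stretches joined from reads) from cloned 3′ ends. They were chosen by length alone as those of 400 nt or more, of which there were 288 among 4818. An edge of a contig need not be a cleavage site. The list came from total RNA of mixed-stage worms of N2, the wild-type laboratory strain, grown on plates with OP50 bacteria, with no treatment and no second genotype. Complementary DNA was primed with oligo-dT, each 3′ end was amplified from a forward primer near its stop codon, cloned by recombination, and the inserts of 6432 mixed transformant cultures (minipools) were pooled and read by 454 pyrosequencing. A further run of single colonies is labelled in the series, and no separate list of it was analysed here. The sources used here do not say whether reads of that run entered the list. Because the length chose the intervals, every length below is a description. There was 1 list and therefore no replicate. The file gives positions and no reads, so depth is unknown, and brackets after a share hold its exact Clopper-Pearson 95% interval, which covers counting error only.

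The long intervals were 5.98% of the list (5.33 to 6.68) and held 135598 nt. Their lengths ran from 400 to 839 nt with a median of 451 nt and quartiles of 423 and 503 nt, whereas the whole list had a median of 183 nt. Of the 288, 141 measured 400 to 449 nt, 76 measured 500 nt or more, 13 measured 600 nt or more and 4 measured 700 nt or more. Among intervals at the stop codon of 1 gene, those just inside the limit were of cpt-1 (400 nt), ddx-19 (401 nt), T20F5.6, ltd-1 and klc-2 (403 nt each), and those just outside it of ret-1, stt-3 and W09G3.1 (399 nt each), the Argonaute gene wago-4 (398 nt) and obr-3 (397 nt).

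Each chromosome held some of them. Chromosome X gave 54 of its 692 intervals (7.80%, 5.92 to 10.1), chromosomes IV, II, I and V gave 6.22%, 6.20%, 6.14% and 5.90%, and chromosome III gave 34 of 855 (3.98%, 2.77 to 5.51). The intervals of the X and III shares did not overlap, and those of every other pair of chromosomes did. The X chromosome thus held 18.8% of the long intervals (14.4 to 23.8) and 14.1% of the shorter ones (13.1 to 15.1). Among intervals of 500 nt or more the X share was 7 of 76, or 9.21%. When the covered range of each chromosome was cut into 3 equal parts, the middle parts held 49% of the long intervals (43.1 to 54.9) and 43.5% of the shorter ones (42 to 45).

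Genes were read from the annotation of assembly WBcel235 after the numbering of the file had been set against it in windows of 1 Mb. The shift that had to be added was within 5 nt in 17 of 99 windows, grew to 100 nt at the end of chromosome II, 120 nt at the end of III and 88 nt at the end of X, and was 4611 or 4612 nt in the last 2 windows of V. Intervals under 400 nt set these shifts, so the long ones had no part in them. The long intervals that began at a stop codon began a median of 31 nt before its end (quartiles 26 and 38 nt), and the shorter ones 32 nt (27 and 38 nt). Only edges at most 60 nt before that end entered, and of several stop codons of a gene the one nearest to 32 nt was taken. These medians are therefore partly set by the rule and are no check of the shifts. Positions below are in the file's own numbering, 1-based, and the sources used here name no build for it. Each window had 1 shift, and neighbouring windows differed by a median of 4 nt and by up to 24 nt outside the jump on V, with 15 of 90 steps of 10 nt or more. With shifts interpolated between windows, a setting added after seeing the data, the distance to the annotated end moved by a median of 1 nt and by at most 9 nt in the 168 intervals at 1 gene. Single distances below carry this error.

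The 283 long intervals in windows with a shift fell into 4 main kinds. In 168 of them (59.4%, 53.4 to 65.1) 1 edge lay at most 60 nt before the last base of the stop codon of 1 gene and no 3′ end of the opposite strand was covered by 10 nt or more. A further 39 (13.8%, 9.99 to 18.4) covered 3′ ends of a plus-strand and a minus-strand gene. Another 62 (21.9%, 17.2 to 27.2) covered a 3′ end on 1 strand but had no stop codon at the edge. The remaining kinds were 10 intervals in coding exons away from any 3′ end (3.53%, 1.71 to 6.40) and 4 that met none of these. The corresponding shares of 4484 shorter intervals were 56.5% (55.1 to 58), 9.92% (9.06 to 10.8), 12.2% (11.2 to 13.2), 17% (15.9 to 18.2) and 4.37% (3.79 to 5.01). Coding intervals thus made up a smaller share of the long set than of the shorter set, and intervals over a 3′ end without a stop codon at the edge a larger one, with binomial intervals that did not overlap. A longer interval has more room to reach a 3′ end or a second gene, so the length itself enters these shares.

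**Figure D1:**
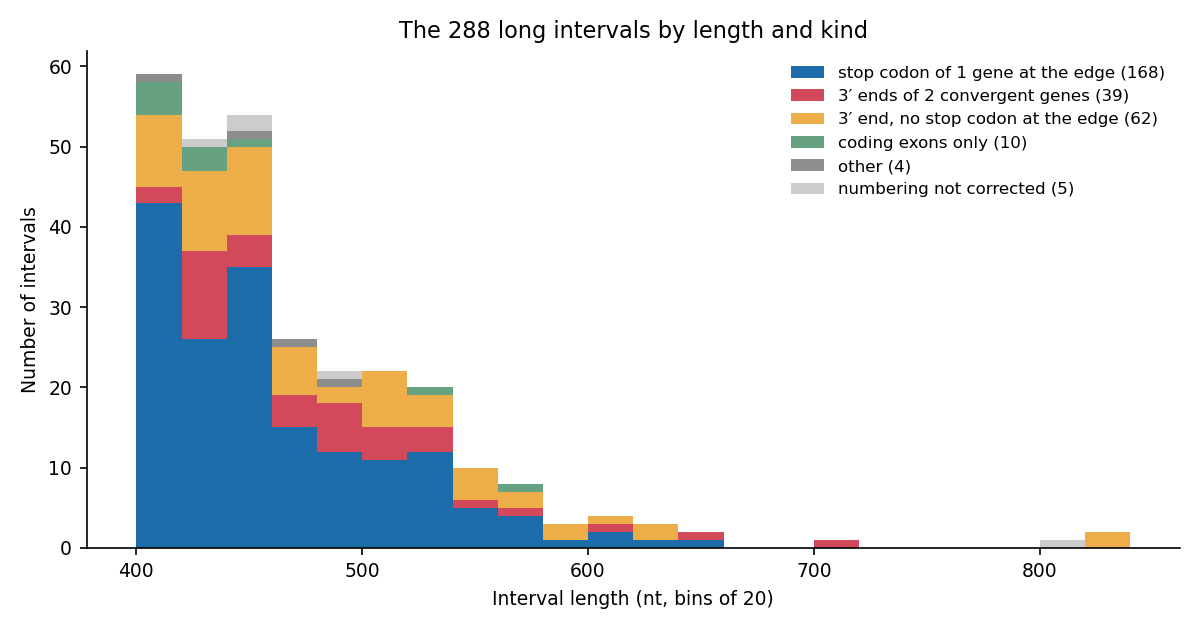
Number of long intervals (vertical axis) by length in nt (horizontal axis, bins of 20 nt), coloured by kind, with the number of each kind in the legend. Intervals at the stop codon of 1 gene (168) are the most frequent kind, and the longest of all, at 824 and 839 nt, lie at a 3′ end without a stop codon at the edge.

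**Figure D2:**
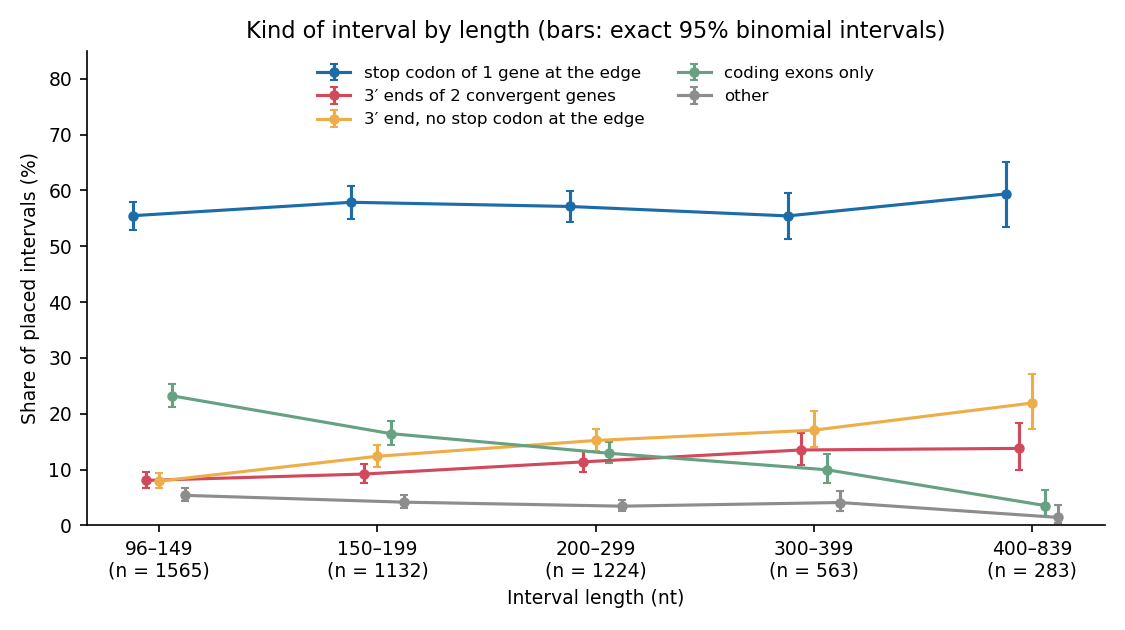
Share of placed intervals of each kind (vertical axis, percent) in 5 classes of length (horizontal axis, nt), with exact 95% binomial intervals. The share at the stop codon of 1 gene lies between 55.4% and 59.4% in each class, while coding intervals fall from 23.2% of the shortest class to 3.53% of the longest and 3′ ends without a stop codon at the edge go from 7.92% to 21.9%.

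The share of intervals at the stop codon of 1 gene differed little between classes of length, as the plot of kind by length shows. It lay at 55.5% for 96 to 149 nt, 57.9% for 150 to 199 nt and 57.1% for 200 to 299 nt. For 300 to 399 nt it was 55.4%, and above that 59.4%. Coding intervals made up 23.2%, 16.4%, 12.9%, 9.95% and 3.53% of the same classes. Convergent intervals made up 8.05%, 9.19%, 11.4%, 13.5% and 13.8%. The last class was not uniform, as 37 of 75 placed intervals of 500 nt or more (49.3%) lay at the stop codon of 1 gene.

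The 168 intervals at 1 gene named 168 genes, 84 on each strand, and were 6.22% of the 2702 intervals of that kind. After the stop codon they held between 342 and 611 nt, with a median of 414.5 nt and quartiles of 385.75 and 464 nt, and 18 held 500 nt or more. The shorter intervals of the same kind held a median of 145 nt, and this contrast follows from the rule of choice.

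The 10 longest by whole interval belonged to genes of unlike function. In vpr-1, which encodes a VAPB-related protein with a major sperm protein domain, 611 nt followed the stop codon (chromosome I, 5868268 to 5868907). nep-26, a gene of the neprilysin family of metallopeptidases, had 599 nt (II, 10283388 to 10284016). The let-19 interval held 579 nt (II, 8781340 to 8781938), and let-19 encodes a subunit of the Mediator complex, which links transcription factors to RNA polymerase. pdzd-8, related to a mammalian protein of endoplasmic reticulum contact sites, had 572 nt (IV, 8983949 to 8984551). All 4 of these far edges lay at most 8 nt from an annotated transcript end, at 2, 1, −8 and −1 nt, where negative values are upstream.

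Others of the 10 longest ended away from the annotation. The globin gene glb-33 had 568 nt after the stop codon (V, 1356332 to 1356942), 342 nt past the annotated end. ztf-7, a zinc finger gene, had 550 nt (V, 9786933 to 9787509), 29 nt past it. The interval of Y8A9A.4 ran 533 nt after the stop codon (II, 3791354 to 3791919) and 164 nt past the annotated end, into coding sequence of the neighbouring gene Y8A9A.3. Upstream ends were those of clu-1, whose product is related to a factor of mitochondrial distribution, with 531 nt (III, 9516660 to 9517235) and −130 nt, and of aho-3, a hydrolase gene, with 530 nt (I, 8032106 to 8032676) and −198 nt. The last of the 10 by whole interval (557 nt), gld-2, whose product lengthens poly(A) tails in germ cell cytoplasm, held 509 nt (I, 6385036 to 6385592). The nearest annotated end of gld-2 belonged to a model that stops at the stop codon. Another gld-2 model ran 1110 nt of genome from its own stop codon to its end, counting any intron. On the X chromosome the longest was that of hlb-1, with 495 nt (13864965 to 13865497), 6 nt short of the annotated end.

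Far edges were compared with the nearest annotated transcript end of the same gene. Of the 168, 90 lay within 20 nt of it (53.6%, 45.7 to 61.3) and 66 within 5 nt (39.3%, 31.9 to 47.1), the last being 38% with interpolated shifts. A further 64 lay more than 20 nt upstream (38.1%, 30.7 to 45.9) and 14 more than 20 nt downstream (8.33%, 4.63 to 13.6). The nearest end can belong to a shorter model, so an interval counted as downstream need not pass every annotated end of its gene. Of the 2534 shorter intervals at 1 gene, 62.4% lay within 20 nt (60.5 to 64.3), 23.5% more than 20 nt upstream (21.9 to 25.22) and 14.1% more than 20 nt downstream (12.8 to 15.5). Long intervals thus ended upstream of the annotated end more often than shorter ones, with binomial intervals that did not overlap, while the intervals of the shares downstream overlapped. At more than 100 nt upstream the shares were 19.6% (13.9 to 26.5) and 13.5% (12.2 to 14.9), and their binomial intervals overlapped. Within 5 nt of the annotated end the share of the shorter intervals was 37.92% (36.03 to 39.85). Its binomial interval overlapped that of the long ones. The sources used here do not say whether the annotation drew on these clones. Priming of oligo-dT within A-rich RNA was not tested.

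**Figure D3:**
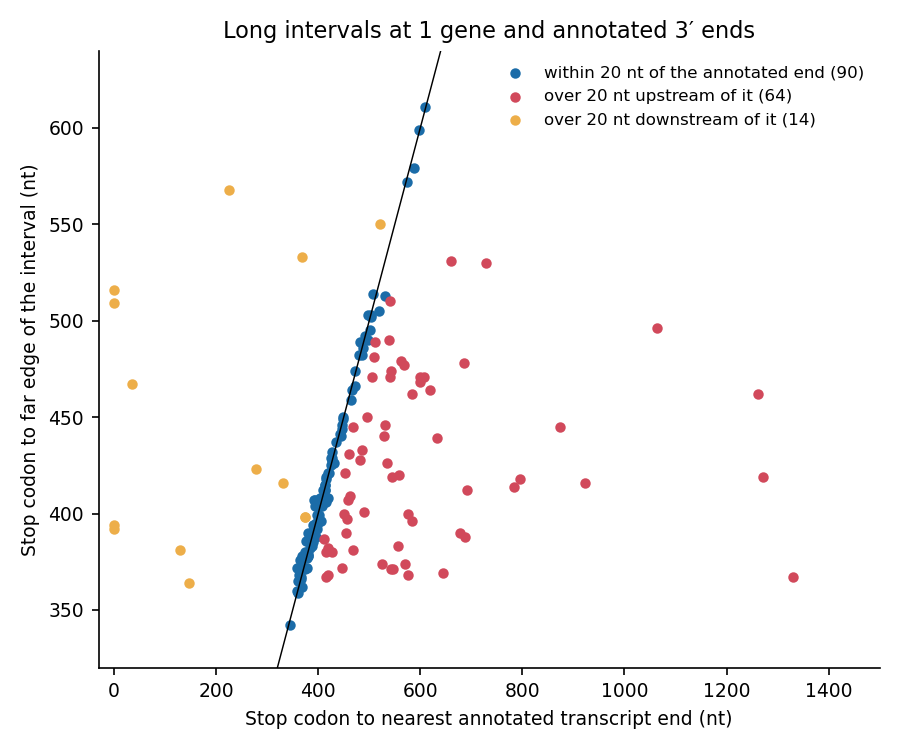
For each long interval at 1 gene, the distance in nt from the stop codon to the far edge (vertical axis) against that from the stop codon to the nearest annotated transcript end (horizontal axis). The line marks equal distances. The 90 blue points lie within 20 nt of it, and the 64 red points end upstream of the nearest annotated end. The 14 yellow points end downstream of that nearest end, though a longer model may exist. pqe-1, whose annotated end lies 5404 nt further on, falls outside the plot.

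The intervals that stopped farthest short of the annotation lay at genes whose nearest annotated end was far downstream in genomic distance. pqe-1, a gene that modifies polyglutamine toxicity, had 435 nt after the stop codon (III, 5315456 to 5315927) and ended 5404 nt before the annotated end. ikke-1, a kinase gene related to the mammalian IKK-epsilon, ended 964 nt before it with 367 nt (III, 9046918 to 9047325). A second interval of ikke-1 of 357 nt lay 593 nt further along and ended 14 nt short of the annotated end. It began 70 nt before the end of a different annotated stop codon of ikke-1, so the genomic distance of 964 nt spans that stop codon. The Onecut homeobox gene ceh-21 had 419 nt (X, 1849624 to 1850066) and ended 853 nt short, the zinc finger gene bcl-11 had 462 nt (V, 6361687 to 6362180) and ended 799 nt short, and gpb-1, which encodes the beta subunit of heterotrimeric G proteins, had 496 nt (II, 11743401 to 11743921) and ended 568 nt short.

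Those that ran farthest past the nearest annotated end lay at genes with a model that ended at or near the stop codon. gld-2 and sax-7 were among them and also had a model with a longer stretch after its own stop codon. Their intervals therefore need not lie past every annotated end. nola-3, a component of the particles that guide pseudouridylation of ribosomal RNA, had no annotated 3′ UTR, and its interval ran 516 nt after the stop codon (I, 10179200 to 10179738) over coding sequence of C25A1.16. fbxa-184, an F-box gene, had none either, and 392 nt followed (II, 1711394 to 1711815). F18C5.10 had an annotated 3′ UTR of 36 nt and an interval with 467 nt (II, 6559239 to 6559737). For sax-7, the gene of an L1-type cell adhesion molecule, 394 nt followed the stop codon (IV, 8082718 to 8083138), next to a model without a 3′ UTR. Another sax-7 model ran 1324 nt of genome from its own stop codon to its end, counting any intron. Besides Y8A9A.4 and nola-3, coding sequence of a neighbour was covered by the intervals of T28C6.7, cdgs-1 and K07F5.22.

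The genes behind the long intervals were also set beside those behind the shorter ones in measures that the length rule did not use directly. Their coding sequence had a median of 1830 nt (quartiles 1195.5 and 2943 nt), against 1164 nt (729 and 1861.5 nt) for the 2531 genes of shorter intervals. From the stop codon to the next protein-coding gene the median was 947.5 nt (561 and 2188 nt), against 711.5 nt (336 and 1793 nt). More than 1 annotated 3′ end, counted when over 20 nt apart, was found in 58 of the 168 genes (34.5%, 27.4 to 42.2) and in 25% of the others (23.3 to 26.7). The longest annotated 3′ UTR had a median of 463.5 nt at the long intervals and 174 nt at the shorter ones. The number of annotated ends is therefore not free of length either. The next gene lay on the opposite strand in 28% (21.3 to 35.4), against 33.8% (32 to 35.7), and these binomial intervals overlapped. The quartile ranges of both lengths overlapped widely, and no test of these differences was made. A long 3′ UTR without another gene in its way needs free space after the stop codon, and intervals that reach a gene on the other strand were counted as convergent, so the distance to the next gene is not free of the grouping.

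Introns after the stop codon were rare. A whole annotated intron lay there in 8 of the 168 intervals (4.76%, 2.08 to 9.17), against 0.947% of the shorter ones (0.608 to 1.41). A longer stretch after the stop codon has more room for a whole intron, so the length rule enters this contrast. The longest intron was that of acc-4, 170 nt within 429 nt (III, 13480547 to 13481015). Those of cyn-8 with 75 nt and clp-4 with 54 nt followed. As interval lengths are genomic, the cloned sequence of these 8 may have been shorter.

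In 18 lists of genes grouped by function, long intervals at 1 gene were counted, as the plot of listed genes shows. They were found in 6.22% of all 2699 genes with an interval of that kind, and the median over these genes was 151 nt after the stop codon. The lists had only 3 to 25 such genes each and were chosen with earlier results of these data known. These counts describe single lists and carry no test.

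**Figure D4:**
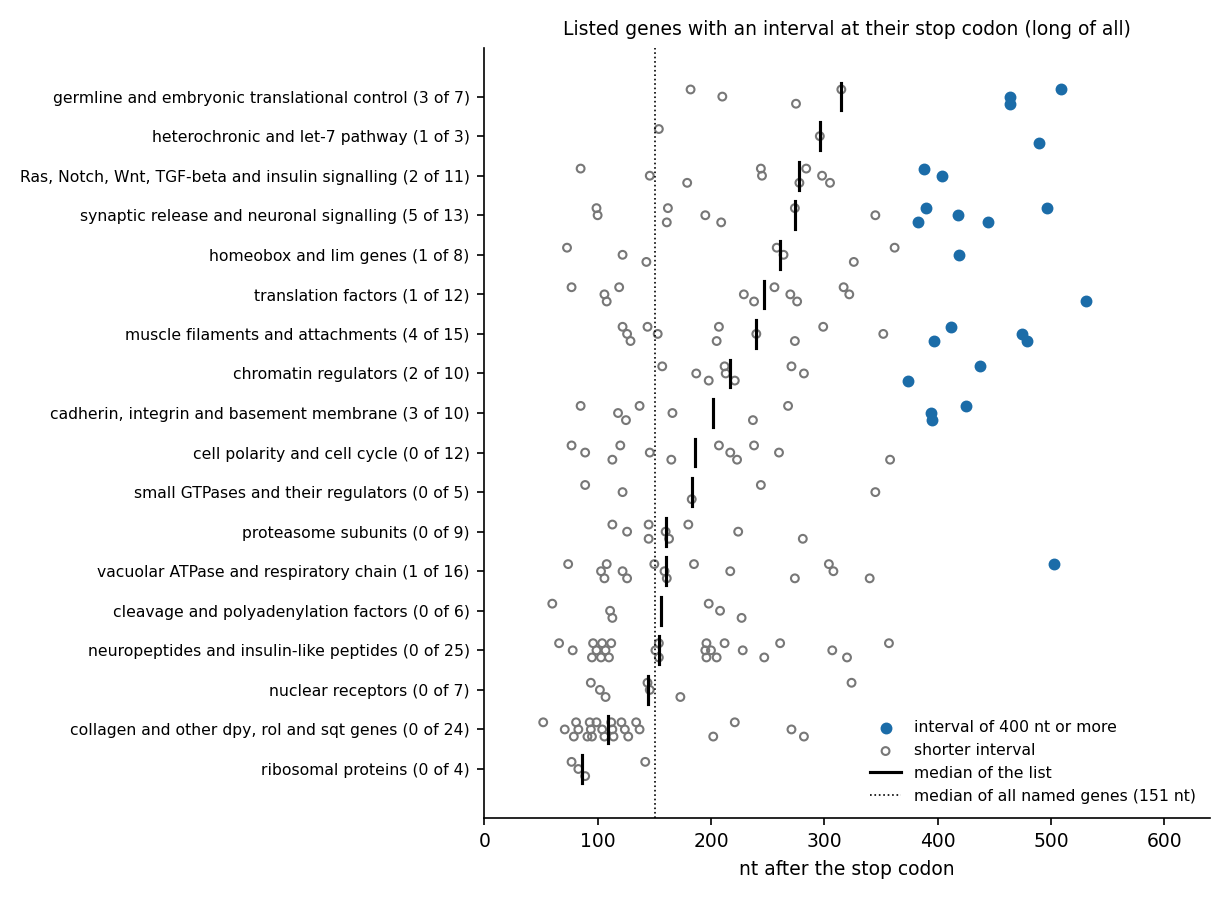
Each point is 1 gene with an interval at its stop codon, placed by the nt after the stop codon (horizontal axis) and by its list (vertical axis, with the number of long intervals of all). Filled points mark intervals of 400 nt or more, bars the list medians, and the dotted line the median of all such genes, 151 nt. Genes of germline and embryonic translational control have the highest median, 315 nt, and ribosomal proteins the lowest, 86 nt.

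Of 13 listed genes of synaptic release and neuronal signalling with an interval at the stop codon, 5 were long, and the list median was 274 nt. They were gpb-1 (496 nt after the stop codon), snb-1, which encodes the vesicle protein synaptobrevin (444 nt, V, 6655547 to 6656024), the kinesin-3 gene unc-104 that moves synaptic vesicle precursors (418 nt, II, 7010115 to 7010555), the synaptotagmin gene snt-1 (390 nt, II, 6815882 to 6816317) and the vesicle priming gene unc-13 (383 nt, I, 7453683 to 7454110). The ends of snb-1, unc-104 and unc-13 lay −3, 2 and −4 nt from an annotated one, and that of snt-1 64 nt upstream.

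Of 15 muscle genes 4 were long, with a list median of 240 nt. unc-45, the myosin chaperone gene, had 479 nt (III, 502026 to 502538) and ended 83 nt upstream of the annotation. deb-1, which encodes the vinculin of dense bodies, had 474 nt (IV, 7085200 to 7085706), 1 nt from the annotated end. The others were the paramyosin gene unc-15 with 412 nt and the sarcomere M-line gene unc-89 with 397 nt, which ended 279 and 60 nt upstream.

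Germline and embryonic translational control gave 3 of 7, with a median of 315 nt. Besides gld-2, these were spn-4, an RNA-binding protein gene of the early embryo (464 nt, V, 6783171 to 6783694, 2 nt from the annotated end), and cpb-1, a CPEB-family gene of spermatogenesis (464 nt, III, 9324168 to 9324657, 155 nt upstream). Among cadherin, integrin and basement membrane genes 3 of 10 were long, namely let-2, a chain of type IV collagen (425 nt, X, 16380516 to 16380975), hmp-1, the alpha-catenin gene (395 nt, V, 11851704 to 11852143), and sax-7. The first pair ended 0 nt from an annotated end.

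The signalling list gave 2 of 11, both of the insulin pathway. akt-2, a protein kinase gene, had 404 nt (X, 14151452 to 14151888) and ist-1, related to insulin receptor substrates, 388 nt (X, 7139182 to 7139603). Of 10 chromatin regulators 2 were long, the histone deacetylase gene hda-1 with 437 nt (V, 14526929 to 14527392) and the histone H3 lysine methyltransferase gene set-2 with 374 nt (III, 4922594 to 4923001), the last ending 197 nt upstream. Single long members were alg-2, an Argonaute of the microRNA pathway, with 489 nt (II, 878428 to 878964, 1 of 3 heterochronic genes), vha-13, a subunit of the vacuolar proton pump, with 503 nt (V, 14353870 to 14354399, 1 of 16), ceh-21 (1 of 8 in a list of homeobox and lim genes, of which lim-9 has no homeobox) and clu-1 (1 of 12 translation factors). Another alg-2 model ran 1409 nt of genome from its own stop codon to its end, counting any intron, and the alg-2 interval ended 7 nt past a nearer end.

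Several lists had no long interval at 1 gene, among them neuropeptides and insulin-like peptides (0 of 25, median 154 nt), genes of cell polarity and cell cycle (0 of 12, 186 nt) and proteasome subunits (0 of 9, 160 nt). A list of col, dpy, rol and sqt genes had none (0 of 24, median 109 nt). It holds cuticle collagens and also 6 dpy genes of other function (dpy-19, dpy-22, dpy-23, dpy-26, dpy-27 and dpy-28). Nuclear receptors (0 of 7, 144 nt), cleavage and polyadenylation factors (0 of 6, 155.5 nt), small GTPases (0 of 5, 183 nt) and ribosomal proteins (0 of 4, 86 nt) had none either. At 6.22% over all genes, fewer than 2 long intervals would be looked for in any of these lists, so an empty list of this size is no result about its genes.

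The 39 intervals over 3′ ends of both strands were of different kinds, which the map of convergent intervals sets side by side. In 12 of them both edges lay within 60 nt of a stop codon, so that the interval spanned both 3′ UTRs from stop codon to stop codon. They measured 411 to 641 nt with a median of 500.5 nt, and the stop codons lay 345 to 547 nt apart. In 21 a stop codon lay at 1 edge and in 6 at neither. A stop codon at both edges was found in 30.8% of the long convergent intervals (17 to 47.6) and in 22% of the shorter ones (18.3 to 26.2). Both stop codons were held by 43.6% (27.8 to 60.4) and 24.7% (20.8 to 29). The binomial intervals overlapped for each of these shares. A longer interval has more room to hold both stop codons, so the length itself enters here too. In 35 of the 39 the annotated 3′ ends of the facing genes overlapped, by a median of 27 nt over all 39.

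**Figure D5:**
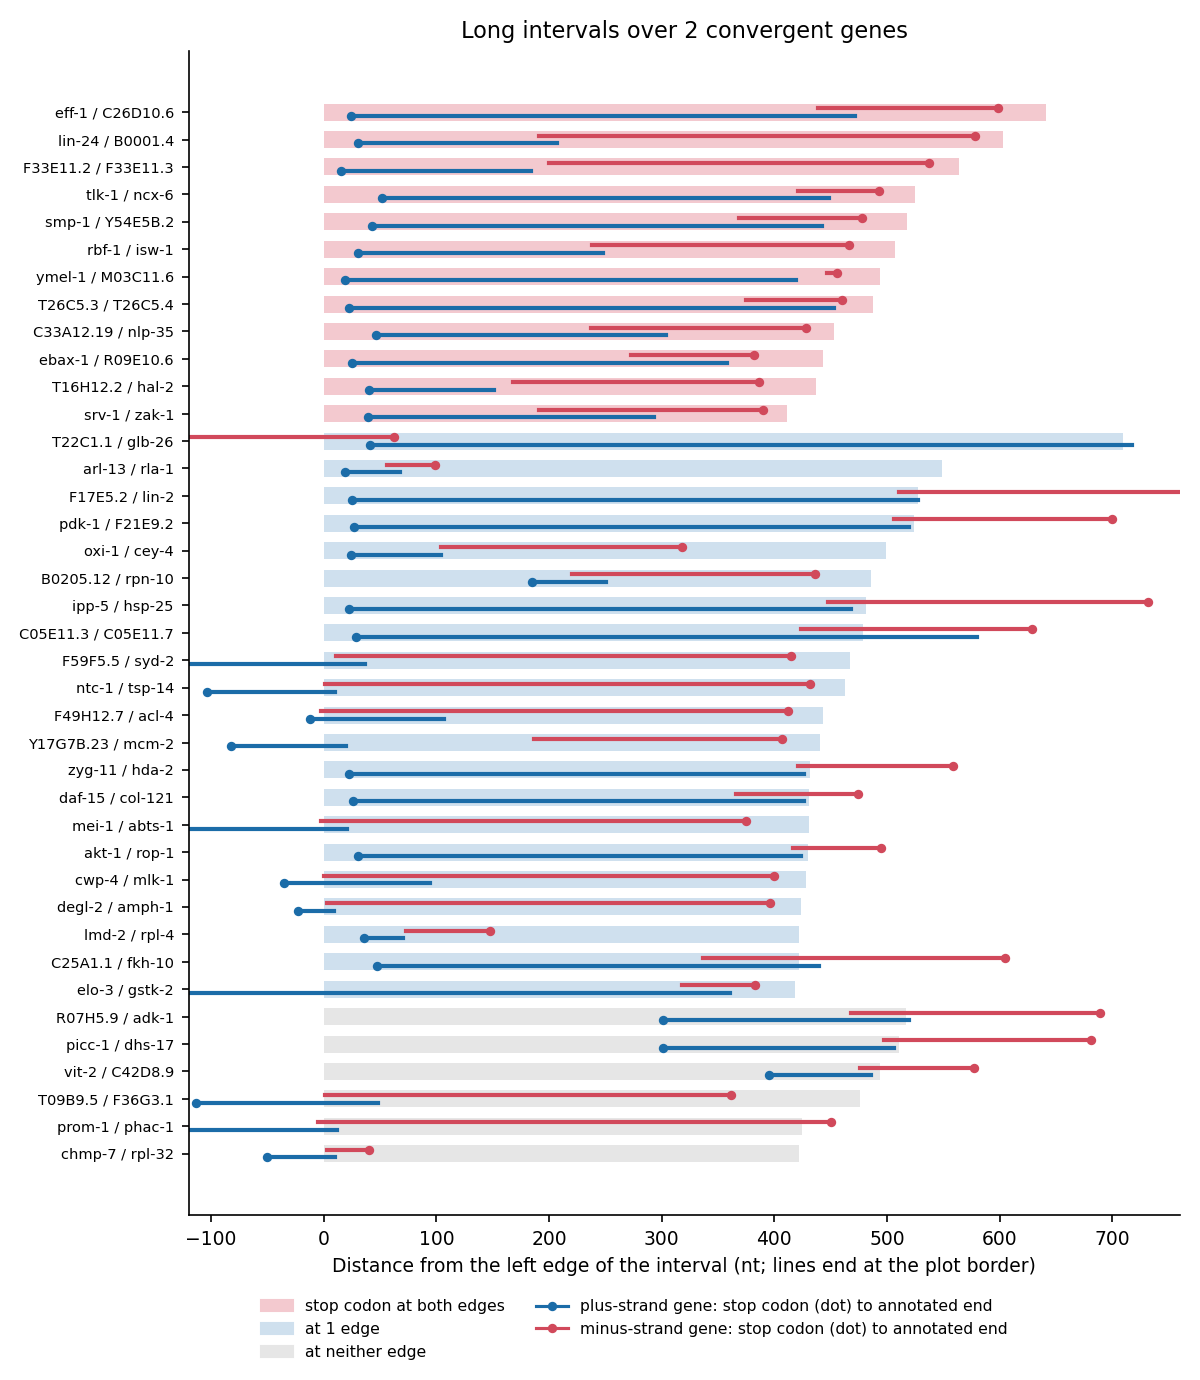
Each bar is 1 of the 39 long intervals over 3′ ends of both strands, drawn from its left edge (horizontal axis, nt). Blue lines run from the stop codon (dot) to the annotated end of the plus-strand gene and red lines the same for the minus-strand gene. In the 12 upper bars the dots lie near both edges, and in most of the 21 bars of the middle group 1 line fills the bar and the other only touches it.

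The longest of the 12 was that of eff-1, whose product fuses cells, and C26D10.6 (II, 8350017 to 8350657, 641 nt). The interval covered 451 nt of the 3′ end of eff-1 and 163 nt of that of C26D10.6, which overlapped by 34 nt. The next ran between lin-24 and B0001.4 (IV, 12134863 to 12135465, 603 nt) and another covered F33E11.2 with F33E11.3 (V, 299826 to 300389, 564 nt). Further ones joined tlk-1, a Tousled-like kinase gene, with the sodium/calcium exchanger gene ncx-6 (III, 9709718 to 9710242, 525 nt), and smp-1, a semaphorin gene, with Y54E5B.2 (I, 14815273 to 14815790, 518 nt). In rbf-1, the rabphilin gene, and isw-1, a chromatin remodelling ATPase gene, the shares were nearly equal, at 221 and 231 nt (III, 6703694 to 6704200, 507 nt). In each of the 12, the list cannot tell whether 1 product or products of both genes made the interval, because its strand column holds a plus sign in every row.

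Most of the 21 intervals with a stop codon at 1 edge followed 1 gene. In 16 of them the stop codon of the facing gene lay outside the interval, and in 14 of these 16 the far edge lay within 20 nt of the annotated end of the gene at the edge. The F17E5.2 interval held 502 nt after the stop codon and touched 17 nt of the 3′ end of lin-2, a scaffold gene of vulval signalling (X, 12398928 to 12399455). That of pdk-1, the kinase that activates the AKT kinases, held 496 nt and touched 18 nt of F21E9.2 (X, 1327458 to 1327981). akt-1 itself had 399 nt (V, 10252388 to 10252817) and daf-15, the worm's raptor gene of TOR signalling, 404 nt (IV, 9394486 to 9394916). Counted with the intervals at 1 gene, these 16 would raise that kind to 184 of 283 (65.0%) and leave 17 (6.01%) that held both stop codons.

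The other 5 that held both stop codons had 1 of them far from the edge. arl-13, a small GTPase gene of cilia, and rla-1, a gene of the ribosomal stalk, shared an interval that reached 449 nt past the rla-1 stop codon into that gene (I, 2069031 to 2069579). Likewise lmd-2 shared one that reached 273 nt past the stop codon of the ribosomal protein gene rpl-4 (I, 4645585 to 4646006), and oxi-1 one that reached 180 nt past that of cey-4, a cold-shock domain gene (III, 10866725 to 10867223). The interval of rpn-10, a proteasome subunit gene, reached 185 nt past the stop codon of B0205.12 (I, 10730478 to 10730963). In T22C1.1, the longest of all 39 at 710 nt (I, 7937608 to 7938317), the stop codons of T22C1.1 and glb-26 lay 20 nt apart near 1 edge, and the 668 nt after the stop codon of T22C1.1 ran over the gene body of glb-26 on the other strand.

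The 6 with no stop codon at either edge lay at R07H5.9 and the adenosine kinase gene adk-1 (IV, 11208813 to 11209329, 517 nt), picc-1 and dhs-17, the yolk protein gene vit-2 and C42D8.9, T09B9.5 and F36G3.1, prom-1 and phac-1, and chmp-7 and rpl-32. In the first 3 of these pairs the interval began 301, 301 and 395 nt before the stop codon of the first gene.

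The 62 intervals over a 3′ end without a stop codon at the edge were 10.2% of the 608 of that kind. In 53 the edge lay more than 60 nt upstream of the stop codon's last base (median 301 nt), and in 9 it lay after it. Of the 53, 14 lay at 61 to 100 nt, close to the limit, and 35 at more than 200 nt. A whole annotated intron lay inside 28 of these 35 (80%, 63.1 to 91.6), with 41 to 258 nt of intron and a median of 52 nt. Of the shorter intervals that began more than 200 nt before, 23 of 61 held one (37.7%, 25.6 to 51). A longer interval has more room for a whole intron, so the length itself enters this contrast. Far edges lay within 20 nt of an annotated end in 34 of the 62 (54.8%, 41.7 to 67.5), against 63% of the shorter ones (58.8 to 67.1).

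The longest and second longest intervals of the list were of this kind. That of eef-1A.2, which encodes translation elongation factor 1-alpha, measured 839 nt (X, 7824596 to 7825434), began 616 nt before the stop codon ended, held 222 nt after it and ended 260 nt before the annotated end. ptc-1, a Patched-family gene of the germline, followed with 824 nt (II, 7899258 to 7900081), of which 445 nt came after the stop codon. The next of this kind were shorter than some intervals of the other kinds. plin-1, the perilipin gene of lipid droplets, had 636 nt (I, 7058532 to 7059167) and wsp-1, the WASP gene of actin assembly, 628 nt (IV, 8188887 to 8189514), and both ended within 2 nt of the annotation. rps-10 had 613 nt (I, 4583871 to 4584483), of which 67 nt followed the stop codon.

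Of 43 listed ribosomal protein genes with an interval of this kind, 7 were long, against 10.4% of all 599 genes with one. This difference was not tested. They were rpl-2, rpl-5, rpl-7A, rpl-25.1, rps-5, rps-10 and rps-20, and their edges lay between 355 nt (rpl-25.1) and 545 nt (rps-10) before the stop codon ended. Of rps-20, 146 nt followed the stop codon, and of rpl-7A 32 nt. eef-2, the gene of elongation factor 2, had its edge 295 nt before (I, 9166393 to 9166805). The remaining listed genes were the muscle genes tnt-2, a troponin T gene, and dim-1, the mitochondrial genes atp-5 and cox-4, and pap-1. eef-1A.2 and the yolk protein gene vit-3 belong to families with near-identical copies, so reads may match several copies and their identity is uncertain.

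Of the 9 that began after the stop codon, pap-1, which encodes a poly(A) polymerase, had an interval of 579 nt that began 517 nt after it (V, 10445547 to 10446125) and ended 309 nt before the annotated end. smg-9, a gene of nonsense-mediated decay, had 2 intervals, and the 487 nt between them lay within an annotated intron of the gene. The distances given here are genomic. One began at the stop codon and held 82 nt after it (II, 14747727 to 14747845), and the long one of 451 nt began 570 nt after the stop codon and ended 1 nt from the annotated end (II, 14746789 to 14747239). W04B5.8 also had 2 intervals, with 92 nt after the stop codon and a long interval of 455 nt that began 1522 nt after it. The gap between these 2 did not lie within an annotated intron. The protein kinase C gene pkc-1 began 472 nt and the transcription factor gene atf-7 124 nt after the stop codon, and the other 4 at 1 to 70 nt.

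Of the 240 genes with a long interval outside the convergent set, 38 had a further interval and 0 had a second long one. In 31 of the 38 a further interval lay in coding exons. unc-89 had 7 of these, and the topoisomerase gene top-1 had 3. In 5 of 40 gaps beside a long interval the gap matched 1 annotated intron within 10 nt (aqp-11, dim-1, pqn-83, rpl-25.1 and vab-8).

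The 10 long coding intervals measured 404 to 560 nt and ended 35 to 10791 nt before the stop codon. The longest was that of lfi-1 (X, 4984802 to 4985361), followed by dnj-11, a gene of the DNAJ chaperone family (IV, 6587090 to 6587619, 530 nt), F13B12.1 (453 nt), nyn-2 (434 nt) and the elongation factor gene ell-1 (428 nt). In 7 of the 10 a whole intron lay inside and in 3 the sequence was coding throughout, namely F13B12.1, the kinesin-like gene vab-8 and the ankyrin gene unc-44, whose interval lay 10791 nt before its stop codon. The interval of gldi-11 lay 6 nt from a further one of 234 nt at the stop codon of the same gene.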

How the data were processed

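The library was made from total RNA of mixed-stage N2 worms by RACE (rapid amplification of cDNA ends) cloning and pyrosequencing, per the labels' protocols. The deposited file lists 4818 intervals by chromosome, start and end in nt, and the authors' score column holds 0 and the strand column a plus sign in every row. The sources used here name no assembler, aligner, filter or genome build. Read depth is unknown.

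Ensembl release 115 (WBcel235) was used by look-up only. Intervals under 400 nt were first scanned against annotated 3′ UTRs over 6000 nt either way in 3 Mb, then refined in 1 Mb windows by the difference between plus-strand and minus-strand distances to stop codons, with at least 3 per strand. Of 103 windows 4 had too few, which left 5 long intervals unplaced. Shares have exact Clopper-Pearson 95% intervals, computed with scipy 1.17.1 under Python 3.11.15. With 1 list no test was made. The functions were tested on simulated data.

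The members and the 18 gene lists were chosen with earlier results of these data known. The lists held 400 distinct symbols and 37 symbol families, and 8 symbols had no gene. Named genes are the 10 longest at 1 gene and over convergent genes, the 5 longest of other kinds, the longest per chromosome, the 5 ends farthest up- and downstream of the annotation, the 5 nearest to the limit on each side, and every listed gene with a long interval at its stop codon. Other genes named were chosen after their values were seen. No sequence was read, so the planned count of polyadenylation signals was not run. Length classes, gene measures and splits of the edge distance were also chosen after seeing the data. Alternatives covered the minimum length, the windows, the correction and the distances.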

Additional observations from a re-analysis of the deposited data

How the results depend on the processing

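No paired analysis was possible because there was 1 list and no replicate. A minimum length of 350, 450 or 500 nt gave 519, 147 and 76 intervals. At 350 nt the share in coding exons was 7.23% and the median after the stop codon 374 nt. At 500 nt the share at 1 gene was 49.3%, that without a stop codon at the edge 32%, the median after the stop codon 496 nt and the X share 9.21%. Without correction of the numbering, 31.2% lay at 1 gene, 49% had no stop codon at the edge and 40% of ends lay within 20 nt of an annotated one, and the cause was not tested. Windows shifted by 5 nt or less alone held 38 long intervals, 23 of them at 1 gene. Of these 23, 10 ended within 20 nt of an annotated end (43.5%), and the cause was not tested. A stop codon limit of 40 nt gave 48.1% at 1 gene and 33.2% without a stop codon at the edge, and one of 100 nt gave 17% for the last. Convergent intervals fell to 7.07% when 50 nt of each 3′ end had to be covered, and to 6.01% when both stop codons had to be held, a setting chosen after seeing the data. A tolerance of 50 nt put 63.7% of ends at an annotated one. The remaining alternatives, interpolated shifts included, stayed within the binomial interval of the main value or within 1.5 times the main count. With windows of 2 Mb, 165 of the 168 intervals at 1 gene were given to the same gene, and with 0.5 Mb 149 of the 152 that could be placed. The planned search for AATAAA before annotated ends was not run, as no genome sequence was used here.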

Other observations

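The 4 placed long intervals that met none of the main kinds, and the 5 that could not be placed, included non-coding and ribosomal RNA. The interval at X, 12652508 to 12652975 (468 nt) lay on lep-5, a long non-coding RNA of the heterochronic pathway, which times the larval-to-adult change. Those at II, 2128646 to 2129125 (480 nt) and IV, 4056519 to 4056931 (413 nt) lay on the pseudogenes R52.10 and W03D2.6, and that at V, 19310206 to 19310656 (451 nt) lay inside fbxb-64 without reaching a coding exon by 10 nt. The last of these is in a window whose shift is 4611 nt.

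Near the end of chromosome I, where no shift could be set, 4 long intervals were found, and 3 of them came within 3 kb of each other. The intervals at 15066037 to 15066850 (814 nt) and 15066912 to 15067353 (442 nt) lay inside rrn-3.1, a gene of ribosomal RNA, at every shift from 0 to 40 nt. That at 15064485 to 15064907 (423 nt) overlapped the same gene at the shift of the nearest window, 14 nt. Ribosomal RNA carries no long poly(A) tail, and 814 nt is the third longest interval of the list.

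Several pairs of neighbouring genes each had their own interval within 200 nt of the other. The interval of rskn-2, a ribosomal S6 kinase-related gene (492 nt), ended 33 nt from that of dod-18 on the opposite strand, that of lgg-2, an autophagy gene of the Atg8 family (505 nt), 86 nt from that of lsm-7, and that of unc-104 178 nt from that of sqv-7. In all, 6.60% of the long intervals (4.02 to 10.1) had a neighbour within 200 nt, against 6.38% of the shorter ones (5.69 to 7.13).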
